A study of Mus musculus with 6 samples.

Results

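The mevalonate arm is the first stretch of cholesterol synthesis. It joins acetyl-CoA units into HMG-CoA and carries the mevalonate made from it, by phosphorylation and decarboxylation, to isoprene units that are assembled into farnesyl diphosphate and then squalene. Its genes are classical targets of SREBP-2, a membrane-bound transcription factor that the protein SCAP escorts to the Golgi for cleavage when sterol in the endoplasmic reticulum is low, and that Insig proteins hold back when sterol is plentiful. In liver the arm feeds cholesterol for lipoproteins and bile acids, and its isoprenoids are also used for protein prenylation, dolichol and ubiquinone. The genes described here were 9 rows of the 32212 in the count table, taken by symbol: Acat2, Hmgcs1, Mvk, Pmvk, Mvd, Idi1, Fdps, Ggps1 and Fdft1. All but Ggps1 act on the route to squalene. Ggps1 leaves it at farnesyl diphosphate to make geranylgeranyl diphosphate.

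Chromogranin A (CgA), encoded by Chga, is a prohormone of endocrine and nerve cells whose fragments act on blood pressure, glucose handling and immune cells. Livers of 3 WT and 3 CgA-KO mice were compared by poly(A) RNA-seq, with 1 library per mouse. All were male mice of the C57BL/6 background, aged 2 yr, on normal chow with 13.5% of calories from fat and a 12 hr light cycle. CgA-KO mice lack the gene in the whole body, and the labels give neither the hour nor the feeding state at collection. Total counts per library were between 10558616 and 31087453, and the shallowest library was WT replicate 1. Chga had 0 counts in all 6 libraries, which allows at most between 0.0965 and 0.284 CPM for counting error only, so it could not check the genotype labels. Counting noise alone did not account for the spread among livers of 1 genotype (chi-square over degrees of freedom at least 29.9), so each library counts as its own sample. As a check of the tissue label, the summed level of 12 hepatocyte markers was at least 61654 counts per 1000000 in every liver. Of these markers 0 were at 0 in all libraries, but this held for the other cell type lists too and does not check the label.

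All 9 genes of the arm were lower in CgA-KO than in WT livers, and 8 of them passed the test. Levels are CPM, counts per 1000000 after scaling by the trimmed mean of M values. The genotypes were tested with edgeR's quasi-likelihood method on 13867 genes, and a gene was called at a Benjamini-Hochberg adjusted p under 0.05. The median log2 fold change over the 9 genes was -1.47, against -0.01 over all genes tested. A call in the lower direction was made for 3.84% of all genes tested and in the higher direction for 8.6%, together 12.4%. Of the 1726 calls 69.1% were higher in CgA-KO, or 86.6% of 1493 when scaled by library size alone and 85.6% of 735 when scaled on hepatocyte markers. No gene of the 9 overlapped between genotypes, which held in the lower direction for 14.6% of all genes tested. Summed over the 9 genes, the level reached 1057, 1015 and 797 CPM in WT replicates 1, 2 and 3 and 263, 337 and 306 CPM in CgA-KO replicates 1, 2 and 3. The WT livers thus held 3.16 times the CgA-KO level on average (957 ± 139 against 302 ± 37.2 CPM, SD, n = 3 each), with every CgA-KO liver below every WT liver. As a share of all counts, which needs no scaling factor, the arm took 0.0745% to 0.112% in WT and 0.0295% to 0.0371% in CgA-KO libraries.

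**Figure D1:**
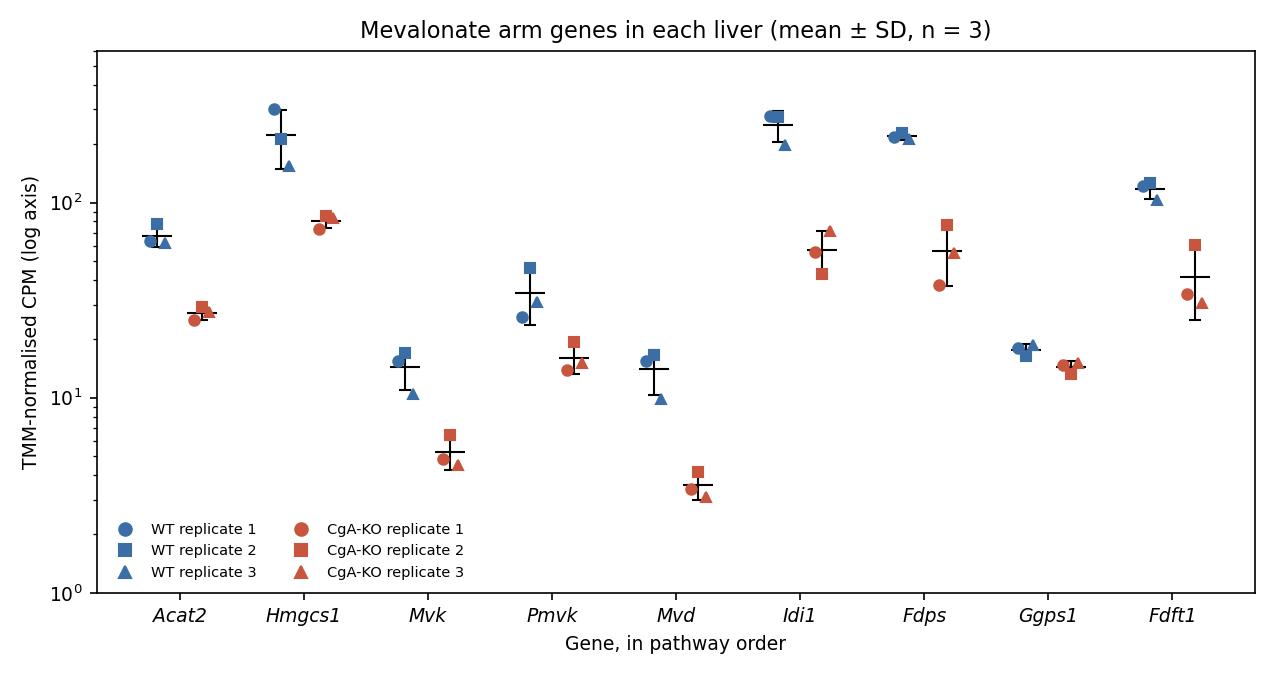
Level of each gene of the mevalonate arm in each of the 6 livers, as TMM-normalised CPM on a log axis, with genes in pathway order, 1 symbol per liver and bars for the mean ± SD (n = 3). For all 9 genes the CgA-KO livers (red) lie below the WT livers (blue), and the gap is narrowest for Ggps1, at 17.6 against 14.4 CPM.

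The entry of the arm is formed by Acat2, the cytosolic thiolase that joins acetyl-CoA units to acetoacetyl-CoA, and Hmgcs1, the cytosolic HMG-CoA synthase. Both were lower in CgA-KO livers. Acat2 was at 63.2, 77.6 and 62.1 CPM in WT replicates 1, 2 and 3 and at 24.9, 29.2 and 27.4 CPM in CgA-KO replicates 1, 2 and 3. The groups lay far apart and each was tight. The fall was 2.49-fold (log2 -1.31, SE 0.18, edgeR adjusted p = 0.00484). Hmgcs1 was at 303, 212 and 154 CPM in the WT livers, in the same order, and at 73.5, 84.9 and 83.6 CPM in the CgA-KO livers. Its WT values spread over a wide range, with replicate 1 on top, while its CgA-KO values were close together. The fall of Hmgcs1 was 2.76-fold (log2 -1.47, SE 0.27, edgeR adjusted p = 0.012). Without CgA-KO replicate 1 its adjusted p was 0.0524, and with scaling on hepatocyte markers it was 0.0638.

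Reads of Acat2 could be shared with a close paralog. Acat2 lies on chromosome 17 of GRCm38 from 12942890 to 12960747 on the minus strand, and Acat3 lies beside it on the same strand, from 12923813 to 12940600. Of the words of 31 bases in the principal transcript of Acat2, 50.5% also occur in transcripts of Acat3. Acat3 was more abundant than Acat2 in counts and did not pass the test, with means of 232 ± 23.4 (WT) and 203 ± 10.2 CPM (CgA-KO) (SD, n = 3 each, log2 -0.19, 95% interval -0.63 to 0.25, edgeR adjusted p = 0.557). Per Acat3 count, Acat2 had 0.295 ± 0.0617 counts in WT and 0.134 ± 0.00402 counts in CgA-KO livers. This ratio was lower in each CgA-KO liver than in every WT liver. The two-sided exact permutation p was 0.1, below which groups of 3 cannot go, and 0.2 after adjustment over the 2 ratios computed.

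The promoter of Hmgcs1 is shown because it held the only match to an SRE-type box among the members' windows. Hmgcs1 lies on chromosome 13 from 119690379 to 119708260 on the plus strand. RefSeq windows on GRCm38.p6, from 250 bases before to 50 bases after a start site, were found for 7 of the 9 genes, and Fdps and Fdft1 had none. They were searched on both strands for TCACNCCAC (an SRE-type box, read by SREBP proteins), CCAAT (the NF-Y box), GGGCGG (the GC box of Sp1) and CACGTG (an E-box), none of which overlaps another here. These letters occur in 1.24%, 37.4%, 35.7% and 7.15% of 32851 such windows. Only exact matches were taken, so a window without a match may still hold a variant of a box. In Hmgcs1 the SRE-type box begins 137 bases before the start site, between NF-Y and GC boxes, with 4 NF-Y and 3 GC boxes in the whole window, some of them past the start site. The stretch at chr13:119690101-119690350, before the start site and outside annotated exons, reads on the plus strand as follows, with matches in capitals.
Hmgcs1: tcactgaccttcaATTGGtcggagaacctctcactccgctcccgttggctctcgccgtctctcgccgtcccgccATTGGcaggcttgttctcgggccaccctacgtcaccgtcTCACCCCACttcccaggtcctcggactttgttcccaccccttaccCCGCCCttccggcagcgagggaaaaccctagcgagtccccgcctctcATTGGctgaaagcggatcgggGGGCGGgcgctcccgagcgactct

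Mvk, Pmvk and Mvd add phosphates to mevalonate and then remove carbon dioxide from it to give isopentenyl diphosphate. These were the genes with the lowest counts on the route to squalene, and all 3 were lower in CgA-KO livers. Mevalonate kinase, Mvk, was at 15.4, 17.0 and 10.5 CPM in WT replicates 1, 2 and 3 and at 4.87, 6.47 and 4.53 CPM in CgA-KO replicates 1, 2 and 3. The lowest WT liver, replicate 3, was still above the highest CgA-KO liver, replicate 2. The fall was 2.69-fold (log2 -1.43, SE 0.26, edgeR adjusted p = 0.0122). Phosphomevalonate kinase, Pmvk, was at 25.8, 46.2 and 30.8 CPM in WT and at 13.9, 19.2 and 15.0 CPM in CgA-KO livers. WT replicate 2 stood well above the other WT livers. Pmvk had the smallest fall that passed the test, 2.14-fold (log2 -1.10, SE 0.25, edgeR adjusted p = 0.0233). Mvd, the decarboxylase, was at 15.5, 16.6 and 9.87 CPM in WT and at 3.39, 4.19 and 3.09 CPM in CgA-KO livers. It rested on 173, 390 and 233 counts in WT and on 73, 132 and 69 counts in CgA-KO libraries, and the 69 were the lowest count of any gene of the arm in any library. Mvd fell furthest of these 3 genes, by 3.91-fold (log2 -1.97, SE 0.27, edgeR adjusted p = 0.00513). Pmvk lost the call without WT replicate 2 (adjusted p = 0.0599), WT replicate 3 (0.0753), CgA-KO replicate 1 (0.0888) or CgA-KO replicate 3 (0.0658), and with scaling on hepatocyte markers (0.077). Mvk lost it without CgA-KO replicate 1 (adjusted p = 0.0505) and with scaling on hepatocyte markers (0.0583).

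Mvk starts 209 bases from Mmab, a gene of vitamin B12 handling on the opposite strand, and their shared promoter is shown for its row of NF-Y boxes. Mvk lies on chromosome 5 from 114444269 to 114460591 on the plus strand. Mmab was at 32.6, 25.9 and 21.7 CPM in WT replicates 1, 2 and 3 and at 14.1, 13.7 and 10.9 CPM in CgA-KO replicates 1, 2 and 3. No CgA-KO liver reached the level of a WT liver, and Mmab fell by 2.07-fold (log2 -1.05, SE 0.21, edgeR adjusted p = 0.0161). The count of Mvk per count of Mmab overlapped between genotypes (0.537 ± 0.102 in WT, 0.411 ± 0.0641 in CgA-KO, exact two-sided permutation test p = 0.2, also 0.2 adjusted over 2 ratios). The window of Mvk held 5 NF-Y and 2 GC boxes and no exact match to the SRE-type box. Its GC box that begins 216 bases before the start site lies outside the stretch shown. The window of Mvd, on chromosome 8 from 122433601 to 122443422 on the minus strand, held 2 NF-Y boxes and 1 GC box. Below, the stretch of Mvk is chr5:114444061-114444268 on the plus strand and that of Mvd is chr8:122443423-122443672 on the minus strand, each cut to bases outside annotated exons, with matches in capitals.
Mvk: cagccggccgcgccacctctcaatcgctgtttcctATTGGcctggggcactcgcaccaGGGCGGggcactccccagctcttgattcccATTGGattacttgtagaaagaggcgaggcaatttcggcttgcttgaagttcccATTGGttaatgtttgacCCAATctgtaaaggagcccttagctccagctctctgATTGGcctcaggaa
Mvd: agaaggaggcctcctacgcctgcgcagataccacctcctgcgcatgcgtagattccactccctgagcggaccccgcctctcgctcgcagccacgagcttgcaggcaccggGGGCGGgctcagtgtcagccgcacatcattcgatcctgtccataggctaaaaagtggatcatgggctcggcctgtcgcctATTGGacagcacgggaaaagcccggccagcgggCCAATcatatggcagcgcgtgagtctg

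Idi1 and Fdps assemble the isoprene units. Idi1, the isomerase that makes dimethylallyl diphosphate, had the largest fall of the 9 genes, and Fdps, the synthase of geranyl and farnesyl diphosphate, fell almost as far. Idi1 was at 278, 276 and 197 CPM in WT replicates 1, 2 and 3 and at 56.1, 42.9 and 71.6 CPM in CgA-KO replicates 1, 2 and 3. Even the highest CgA-KO liver, replicate 3, was far below the lowest WT liver. The fall was 4.40-fold (log2 -2.14, SE 0.26, edgeR adjusted p = 0.00397), at rank 67 by p among all genes tested. Fdps was at 216, 228 and 211 CPM in WT and at 38.0, 76.4 and 55.2 CPM in CgA-KO livers. It had the tightest WT values of the arm for its level, while its CgA-KO values covered a broad range with replicate 2 on top. Fdps fell by 3.86-fold (log2 -1.95, SE 0.27, edgeR adjusted p = 0.00522). The Idi2 gene, the other isomerase, had 0 counts in all 6 libraries.

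Fdps is the gene of the arm whose reads are hardest to place. Of its 31-base words, 89.7% occur in a transcript of another gene of the GENCODE annotation and 79% occur in Gm43738, a protein-coding entry on the same strand that overlaps Fdps and has no row in the count table. Idi1 lies on chromosome 13 from 8885501 to 8892451 on the plus strand, and 32% of its words are shared, at most 21.9% with any single gene. Fdps lies on chromosome 3 from 89093588 to 89101959 on the minus strand. Of the words of Hmgcs1, 14.6% occur in Gm48342. Mvk, Pmvk and Mvd shared 0 words with any other gene. The part of shared reads in the fall of Fdps or of the other genes was not tested. The Idi1 window held 2 NF-Y boxes and 1 GC box, and the 2 windows of Pmvk held 1 NF-Y box between them.

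Farnesyl diphosphate is the branch point of the arm, where Fdft1 and Ggps1 draw on it. Fdft1, squalene synthase, commits it to sterols and was lower in CgA-KO livers. Ggps1, which makes the donor for geranylgeranyl groups on small GTPases such as the Rab proteins, was the only gene of the 9 that did not pass the test. Fdft1 was at 122, 126 and 103 CPM in WT replicates 1, 2 and 3 and at 33.9, 60.8 and 30.5 CPM in CgA-KO replicates 1, 2 and 3. CgA-KO replicate 2 was again the highest of its group. The fall was 2.80-fold (log2 -1.49, SE 0.28, edgeR adjusted p = 0.0128), and the adjusted p was 0.0543 without CgA-KO replicate 1. Ggps1 was at 17.9, 16.3 and 18.7 CPM in WT and at 14.8, 13.2 and 15.1 CPM in CgA-KO livers. The groups did not overlap but nearly touched, where 33.6% of all genes tested do not overlap. Its log2 difference was -0.30 (SE 0.17, 95% interval -0.69 to 0.10, edgeR adjusted p = 0.294). The interval excludes a fall as large as the median of the arm. With library size alone the log2 difference of Ggps1 was -0.04, on a scale where the median of all genes moved to 0.26.

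Both genes at the branch point overlap another gene, as do Hmgcs1, Mvd, Idi1 and Fdps. Fdft1, on chromosome 14 from 63145150 to 63179578 on the minus strand, overlaps Ctsb, which encodes the lysosomal protease cathepsin B, on the opposite strand. Of the words of Fdft1, 36.8% are shared with other genes, and 20.3% occur in Ctsb transcripts. Ctsb averaged 354 ± 52.7 CPM (WT) and 698 ± 225 CPM (CgA-KO) over the livers (SD, n = 3 each), a log2 difference of 0.98 that did not pass the test (edgeR adjusted p = 0.0553). Whether the quantification used strand is not given in the sources used here, so reads from the shared stretch cannot be assigned. Ggps1, on chromosome 13 from 14050659 to 14063488 on the minus strand, starts 256 bases from Arid4b on the opposite strand and overlaps it. Of the words of Ggps1, 17.6% are shared with other genes, at most 9.54% with any single gene. Arid4b did not pass the test either (log2 0.16, SE 0.22, edgeR adjusted p = 0.686). Part of the Ggps1 window is shown as that of the gene without a call, and the whole window held 3 NF-Y boxes and 0 GC boxes. The NF-Y boxes that begin 201 and 160 bases before the start site lie outside the part shown. Among the called genes the window of Acat2 held 0 NF-Y boxes and 1 GC box, and the windows of Pmvk held 0 GC boxes. The stretch of Ggps1 outside annotated exons is chr13:14063490-14063603 on the minus strand.
Ggps1: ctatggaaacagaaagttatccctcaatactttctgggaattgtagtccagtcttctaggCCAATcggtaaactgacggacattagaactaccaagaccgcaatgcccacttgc

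The balance between the genes of the arm was then compared within each liver, as log2 CPM of a gene minus the mean of the 9 genes in the same liver, a measure that library scaling hardly touches. Against this mean, Ggps1 stood higher in CgA-KO livers, at -0.42, -0.90 and -0.49 in CgA-KO replicates 1, 2 and 3. In WT replicates 1, 2 and 3 it was at -1.81, -2.04 and -1.45, a difference of 1.16. Pmvk also stood higher, by 0.40. Neither gene rose in CPM, with means of 17.6 (WT) and 14.4 (CgA-KO) for Ggps1 and 34.3 and 16.0 for Pmvk. The mean of the 9 genes fell further, so these places restate the fold changes above and are no separate result. Idi1 stood lower by 0.69, Fdps by 0.55 and Mvd by 0.47, and for each of these 5 genes the genotypes did not overlap. The places are tied to each other, since a higher place of any gene sets the others lower. No share over all genes was computed for this measure. Acat2, Hmgcs1, Mvk and Fdft1 kept overlapping places, with differences between -0.09 and 0.15. An exact two-sided permutation test gave p = 0.1 for each of the 5 separated genes, the smallest that 3 livers against 3 allow, and 0.18 adjusted over the 9 genes, so this test could not bring a shift in balance past the threshold with 3 livers a genotype.

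**Figure D2:**
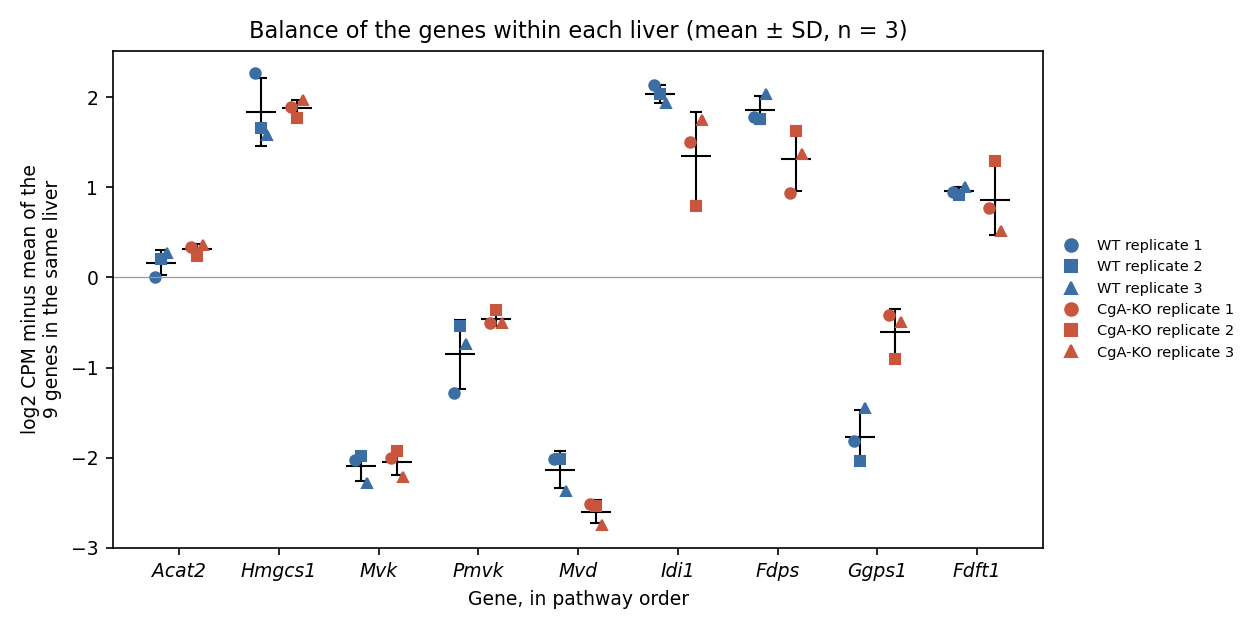
Place of each gene within the arm, as log2 CPM minus the mean of the 9 genes in the same liver, with 1 symbol per liver and bars for the mean ± SD (n = 3). Relative to that mean, Ggps1 goes from -1.77 in WT to -0.61 in CgA-KO livers on average, though its CPM was not higher. Idi1, Fdps and Mvd move down, and the genotypes overlap for Hmgcs1 and Mvk.

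Levels of different genes can be compared only per length, so CPM was divided by the length of the principal transcript in kb. In WT livers Fdps was highest at 158 ± 6.25 CPM per kb (SD, n = 3), followed by Idi1 at 82.7 ± 15.2 and Hmgcs1 at 64.4 ± 21.7, and the ranges of the last 2 overlapped. Fdft1, Acat2 and Pmvk came next, between 28.7 and 31.7 CPM per kb, and neighbours among them overlapped. Mvk at 8.61 ± 2.03, Mvd at 7.96 ± 2.05 and Ggps1 at 4.16 ± 0.291 CPM per kb closed the order, with overlap between Mvk and Mvd. In CgA-KO livers Fdps was still highest, at 40.9 ± 13.9 CPM per kb. Mvd was the lowest there, at 2.02 ± 0.322 CPM per kb, and lay below Ggps1, at 3.38 ± 0.24, and Mvk, at 3.19 ± 0.624. The distance between the highest and the lowest gene of the arm was wide in both genotypes. Reads shared with other genes limit these levels, those of Fdps above all.

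**Figure D3:**
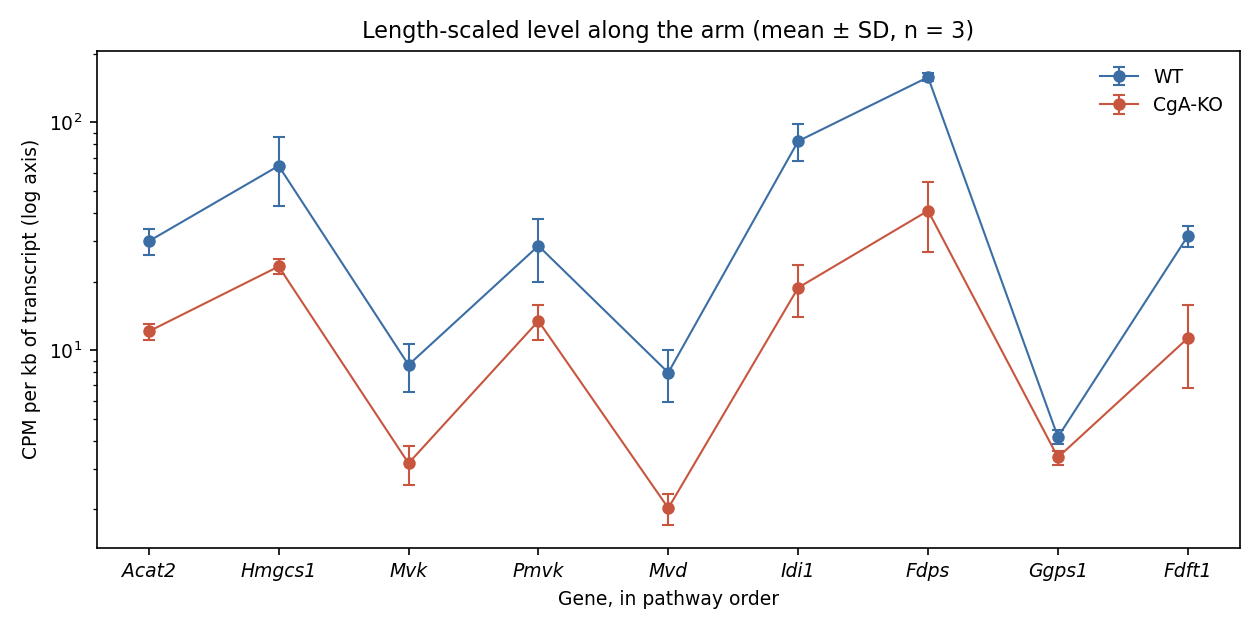
Length-scaled level along the arm, as mean CPM per kb of principal transcript ± SD (n = 3) on a log axis, in WT (blue) and CgA-KO (red) livers. Fdps peaks in both genotypes, at 158 and 40.9 CPM per kb, and the lines come closest at Ggps1.

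Within a genotype the scaled levels of the genes tended to follow the liver. WT replicate 3 had the lowest WT value for 7 of the 9 genes, and WT replicate 2 the highest for 6. The WT order depends on the TMM factors, which were 1.06, 0.756 and 0.935 in WT replicates 1, 2 and 3. As an unscaled share of all counts, the arm took 0.112%, 0.0768% and 0.0745% in the same order, with WT replicate 1 on top. CgA-KO replicate 2 had the highest CgA-KO value for 7 genes, all but Idi1 and Ggps1, for which it had the lowest. These orders describe 3 livers each and were given no test. Over the 6 libraries, the mean of the members' standardised log2 CPM was taken as the profile of the arm. Among the 5 genes outside the arm with the highest Pearson correlation to it were Ttc23 (0.997), Sqle (0.996), Msmo1 (0.995) and Spsb4 (0.994). Sqle and Msmo1 are enzymes of the sterol arm. The members themselves ran from 0.794 for Ggps1 to 0.994 for Acat2. Each member is part of the profile, which raises its value, so these cannot be set against the values of outside genes. The libraries form 2 genotypes, so such correlations mainly repeat the difference between them.

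The routes around the arm were read off the same edgeR fit. Of the 11 enzymes that turn squalene into cholesterol, all 11 were lower in CgA-KO livers and 8 passed the test, with a median log2 fold change of -1.33. The C4-demethylating oxidase Msmo1 fell from 228 ± 51.0 to 50.4 ± 10.2 CPM (log2 -2.17, edgeR adjusted p = 0.00355), and Sqle, the squalene epoxidase, by 3.21-fold (log2 -1.68, adjusted p = 0.0039), while Ebp, the sterol isomerase, had a log2 difference of -0.59 (adjusted p = 0.174). Among 18 genes that use isoprenoids, 10 were lower and 8 higher in CgA-KO livers, with a median of -0.14. Of them, 0 passed the test in edgeR, 3, in both directions, had an unadjusted p under 0.05, and 2 were called by DESeq2. Those nearest the threshold were Rabggta, a subunit of the Rab geranylgeranyl transferase (log2 -0.58, adjusted p = 0.071), and Trit1, which prenylates tRNA (log2 -0.61, adjusted p = 0.0736). Cox10, a farnesyl transferase of heme synthesis, was at log2 0.10 (adjusted p = 0.852).

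Upstream of the arm, 1 of 4 genes of acetyl-CoA and NADPH supply passed the test and all 4 were lower. It was Me1, the cytosolic malic enzyme (log2 -1.78, adjusted p = 0.00603). Acly, the ATP citrate lyase, had a log2 difference of -0.85 (adjusted p = 0.0548), and Slc25a1, the citrate carrier, of -0.90 (0.0664), and DESeq2 called all 4. In the mitochondrial route that shares the HMG-CoA intermediate but makes ketone bodies, 1 of 4 genes passed the test. Bdh1, which makes hydroxybutyrate, fell by 1.89-fold (log2 -0.92, adjusted p = 0.0393), and without WT replicate 2 or 3 or CgA-KO replicate 1 or 3 the route had 0 calls. Acat1, the mitochondrial thiolase, did not pass the test (log2 -0.47, adjusted p = 0.24).

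**Figure D4:**
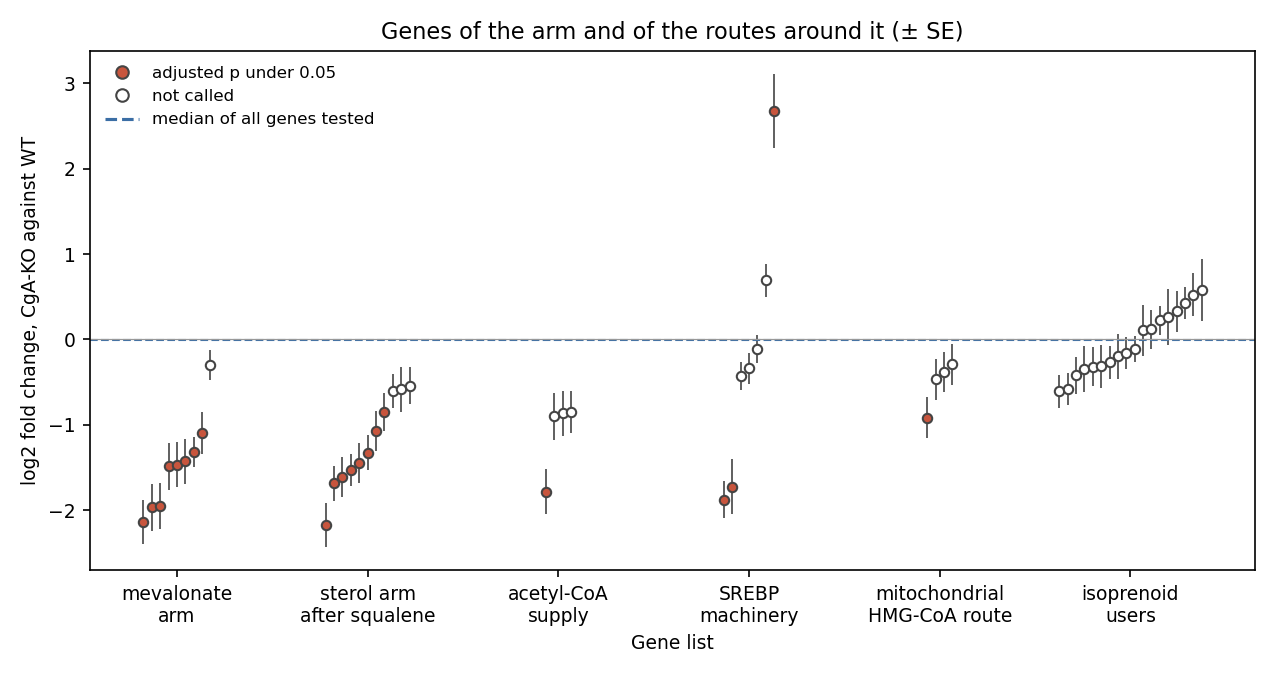
Log2 fold change of CgA-KO against WT (± SE) for each gene of the mevalonate arm and of 5 lists around it, ordered within each list, filled where the edgeR adjusted p was under 0.05, with the median of all genes tested as a dashed line at -0.01. Of the arm 8 of 9 genes are filled and of the sterol arm 8 of 11, while 0 of the 18 isoprenoid users are.

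The machinery that controls the arm was not uniformly lower. Of 7 genes, 2 fell and 1 rose past the threshold. Insig1 fell from 387 ± 30.5 to 105 ± 16.4 CPM (log2 -1.88, adjusted p = 0.00346), and Srebf1, which encodes the SREBP-1 proteins, fell too (log2 -1.73, adjusted p = 0.0128). Insig2 rose from 71.7 ± 31.9 to 459 ± 223 CPM (log2 2.68, SE 0.43, adjusted p = 0.00778). Srebf2, which encodes SREBP-2, was at a log2 difference of -0.43 (adjusted p = 0.123), and Mbtps1, the site-1 protease, at -0.11 (adjusted p = 0.699). Without WT replicate 3, only 1 of the 7 was called. Srebf1 and Srebf2 are named outside the rule for single genes, after their values were seen.

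Other genes moved with the arm between the same livers. Macrophage markers passed the test in 9 of 10 cases, all higher in CgA-KO, and their summed level went from 126 to 332 CPM over the WT livers and from 1261 to 1966 CPM over the CgA-KO livers. Stellate cell markers were also higher in sum (212 to 269 against 337 to 587 CPM), with 3 of 8 called. The called ones were Dcn (log2 0.99), Reln (0.91) and Hgf (1.20). Ecm1, Col1a1 and Col3a1 were higher without a call. Lrat was at log2 0.15 (edgeR adjusted p = 0.775) and Des at -0.11 (0.808), so the sum does not stand for each marker. The summed lymphocyte (8.39 to 39.1 against 26.4 to 83.3 CPM), endothelial (120 to 156 against 139 to 190 CPM) and bile duct markers (19.1 to 30.5 against 18.6 to 73.4 CPM) overlapped between genotypes, and 0 markers of any of these lists were at 0 in all libraries. Of the lymphocyte markers 3 of 8 were nonetheless called, all higher in CgA-KO, with a list median of 1.94. They were Cd3e (log2 3.60), Cd3g (3.27) and Nkg7 (3.86), with CgA-KO replicate 2 the highest for each. Cd2 was at log2 3.02 without a call (edgeR adjusted p = 0.0542). The rest of the list was not called, namely Cd79b (log2 0.86), Jchain (0.63), Cd79a (0.01) and Ms4a1 (-0.03), with edgeR adjusted p from 0.499 to 0.995. Of the endothelial markers 2 of 8 were called, Lyve1 higher (log2 2.81) and Clec4g lower (log2 -1.11), and of the bile duct markers 0 of 5 by edgeR, with 1 at an unadjusted p under 0.05. The summed hepatocyte markers overlapped too, from 68761 to 111961 CPM (WT) and from 61654 to 100580 CPM (CgA-KO), and 0 of the 12 passed the test in edgeR, with 1 at an unadjusted p under 0.05. Scaled on the hepatocyte markers, all 9 genes of the arm were still lower and 5 were called, namely Acat2, Mvd, Idi1, Fdps and Fdft1. In bulk tissue, fewer hepatocytes and less of these RNAs per hepatocyte cannot be told apart. Core clock genes differed as well, with 5 of 13 lower and 3 higher past the threshold. Arntl rose from 0.814 ± 0.383 to 16.8 ± 2.43 CPM (log2 4.44, adjusted p = 0.00164) and Per3 fell from 70.0 ± 24.5 to 7.82 ± 1.68 CPM (log2 -3.16, adjusted p = 0.00247), while Cry1 was at log2 0.09 (adjusted p = 0.834). The part of the other cell types and of the clock genes in the levels of the arm was not tested.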

How the data were processed

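Liver poly(A) RNA was sequenced from 6 mice, 3 WT and 3 CgA-KO. The values are the counts per gene symbol that the authors deposited, whole numbers without scaling, from Salmon 1.4.0 run on the GRCm38 transcriptome. How transcripts were summed to genes is not given in the sources used here. All 6 columns matched a sample title, and 0 were left without a sample. Replicate numbers were not taken to pair the mice.

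Counts were analysed with edgeR 4.0.16 (R 4.3.3): filterByExpr with a minimum count of 10, TMM factors between 0.756 and 1.12, robust quasi-likelihood fits, a two-sided test of genotype and Benjamini-Hochberg adjustment over all genes tested. Standard errors are the log2 fold change over the square root of F. Log2 CPM uses a prior count of 2. The procedure was tested on simulated counts with far fewer changed genes than were called here, drawn evenly in both directions. That setting does not test it on a shift as uneven as the one in these data. Depth limits levels at 3 counts, 0.0965 to 0.284 CPM. Coordinates, transcript lengths and shared words of 31 bases come from GENCODE M21 on GRCm38, promoters from RefSeq (GRCm38.p6).

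The genes of the arm and the other lists were chosen with earlier results of these data known. Besides the 9 genes, the text names in each list the 2 genes with the smallest p-value and the 1 with the largest, and the 5 genes whose profile is most like that of the arm. Some genes that this rule covers are not reported here. Alternatives were DESeq2 1.42.0, DESeq2 size factors, library size alone, upper-quartile factors, hepatocyte marker scaling, limma-voom (limma 3.58.1), a filter that kept genes with any count and another that asked for 10 counts in each library, a replicate block and fits without each library. Figures were drawn with matplotlib 3.10.9.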

Additional observations from a re-analysis of the deposited data

How the results depend on the processing

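All 9 genes of the arm were lower in CgA-KO in each of 15 alternatives, 135 of 135 values, and Ggps1 was called in 0 of them (adjusted p from 0.265 to 0.932). Acat2, Mvd, Idi1 and Fdps were called in all 15, Fdft1 in 14, Hmgcs1 and Mvk in 13 and Pmvk in 10. The genes of the arm called were 5 of 9 with scaling on hepatocyte markers and between 4 and 8 without single libraries, the lowest without CgA-KO replicate 1. The median of the arm was -1.22 with library size alone, which moved the median of all genes to 0.26, and hepatocyte scaling moved the latter to 0.20. In total 2592 genes were called by DESeq2, 735 with hepatocyte scaling, and between 394 (without WT replicate 3) and 2126 (without WT replicate 1) without single libraries. DESeq2 called 2 isoprenoid users. Of the 4 acetyl-CoA supply genes, DESeq2 called 4, limma-voom 2, the filter on a total of 1 count 2, the replicate block 3 and fits without single libraries between 1 and 3. The mitochondrial route had 0 calls with library size alone and with hepatocyte scaling, and between 0 and 1 without single libraries. SREBP machinery had between 1 and 3 calls without single libraries. Of the 11 enzymes of the sterol arm, DESeq2 called 10. Library size alone and hepatocyte scaling each left 6 of these calls, and fits without single libraries between 6 and 8. Summed hepatocyte markers turned to higher in CgA-KO with library size alone (log2 0.12). The cause of these changes was not tested. Fits without a library rest on 2 livers in a genotype.

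The replicate numbers were not taken to pair the livers. Deviations from the genotype mean correlated at 0.199, 0.0127 and -0.0659 for the same numbers. Different numbers were not set beside these, so pairing was not tested. With the replicate number as a block, 8 genes of the arm and 1498 of all genes were called. Counts as low as 69 for Mvd limit single values.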
